A study of Mus musculus with 8 samples.

Results

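Oxidative phosphorylation is carried out by 5 protein complexes of the inner mitochondrial membrane, and the genes of their subunits are described here in organoids of embryonic mouse stomach epithelium with and without an active form of YAP. The genes were taken by their symbols: the Nduf genes of complex I, the Sdh genes of complex II, Uqcr genes and Cyc1 of complex III, the numbered Cox genes of complex IV, the Atp5 genes of ATP synthase, and the protein-coding genes of mitochondrial DNA. These patterns matched 99 of the 53170 named genes, of which 86 are encoded in the nucleus and 13 in mitochondrial DNA. The nuclear genes include Cox6c2, which is annotated as a processed pseudogene of Cox6c. All 13 mitochondrial genes and 81 of the nuclear genes had enough counts to be tested.

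RNA was sequenced from 8 libraries of organoids grown from the hindstomach (glandular stomach) epithelium of mouse embryos at embryonic day 18.5 and kept in growth medium for 5 days. The 4 control libraries carry the genotype Shh-Cre, and the 4 YAP5SA libraries carry Shh-Cre;YAP5SA. Shh-Cre expresses Cre recombinase from the Shh locus, which is active in the endoderm that lines the embryonic gut, so the controls carry the Cre driver too. YAP5SA is a form of the transcriptional coactivator YAP whose serines phosphorylated by the Hippo pathway kinases were changed to alanine, which keeps it active. Whether a group's libraries came from separate embryos or cultures is not in the labels, so p-values reflect only how much these libraries differ among themselves. Organoids moved on to differentiation medium and the single-cell libraries of the study were not analysed here.

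As background, complexes I and II pass electrons from NADH and succinate to ubiquinone, complex III passes them to cytochrome c, and complex IV passes them to oxygen. Complexes I, III and IV pump protons while doing so, and ATP synthase uses the proton gradient to make ATP. Complexes I, III, IV and ATP synthase mix subunits made from nuclear genes with subunits made from mitochondrial DNA, which is transcribed by its own polymerase and translated by its own ribosomes. Complex II is built from nuclear genes alone. In the stomach, the acid-secreting parietal cell is known for its dense mitochondria.

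Libraries held between 13672268 and 19710648 counts. Xist, the RNA that silences an X chromosome, was at 676 CPM or more (counts relative to library size, scaled by TMM) in each control library and at 2.76 CPM or less in each YAP5SA library. Sex was read from this RNA alone, and sex and genotype cannot be told apart here. The level of mouse Yap1 was 160 ± 7.22 CPM (SD, n = 4) in the control and 153 ± 4.16 CPM in the YAP5SA group, and since it is not known whether transgene reads are counted there, this does not check the labels. Of 10 gastric epithelial markers, 7 were lower and 2 higher in YAP5SA libraries, and their summed level was between 8941 and 9554 CPM in controls and between 6218 and 6475 CPM in YAP5SA libraries. Cldn18, the stomach tight-junction claudin, was near 0 in YAP5SA libraries, at 2.05 ± 1.31 CPM against 1353 ± 41.7 CPM in controls. Parietal cell markers summed to between 542 and 617.9 CPM in controls and between 5.241 and 8.497 CPM in YAP5SA libraries, where all 5 tested members were lower and Slc26a7 was at 0 in every library. Most of the control sum came from Kcnj15, Clic6, Cblif and Esrrg. The proton pump genes were low in both groups: Atp4a had means of 8.21 CPM (controls) and 5.40 CPM (YAP5SA), and Atp4b had 3 and 0 counts. Whether the controls held parietal cells was not tested. Of the other cell types, endothelial markers summed to between 6.504 and 13.7 CPM in controls and at most 0.8415 CPM in YAP5SA libraries, and immune markers to between 18.74 and 38.03 CPM and between 7.361 and 9.462 CPM. The endothelial sum in controls came mostly from Tek (mean of 8.88 CPM) and the immune sums from Cd68 (28.6 CPM in controls and 7.88 CPM in YAP5SA libraries). All other markers of these cell types had means of 0.514 CPM or less in each group, so the sums do not show such cells. Muscle, fat, mesenchymal, erythroid and enteric neural marker sums were each under 4 CPM in every library. In bulk RNA, fewer cells of a type and less RNA per cell cannot be told apart, and the part of these marker differences in the results that follow was not tested.

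Nuclear subunit genes were higher in YAP5SA organoids as a broad, shallow shift, and none of the mitochondrially encoded subunits was called higher. The test was edgeR's quasi-likelihood test, Benjamini-Hochberg adjusted over all tested genes, and a gene was called where the adjusted p was under 0.05. Of the 81 tested nuclear genes it called 53 higher and 1 lower, and 27 missed the threshold. That is 65.4% of the nuclear genes called higher, beside 23.6% of the 14058 genes tested, and 1.23% called lower, beside 25.5%. The median log2 fold change of the nuclear genes was 0.21, or 1.16-fold, beside 0.0041 over all tested genes. Fold changes of the 53 genes that rose lay between 1.10 and 1.95, so none reached 2-fold. In 50 of the 81 genes every YAP5SA library was above every control library, beside 21.8% of all tested genes, and in none was every YAP5SA library below. Of the 13 mitochondrial genes, edgeR called 0 higher (0 at an unadjusted p under 0.05, and 0 with DESeq2) and 3 lower. The 3 are 23.1% of the genes, beside 25.5% of all tested genes, and the median log2 fold change of the 13 was -0.14.

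The same contrast appeared within each complex that draws on both genomes. In complex I, 19 of 36 nuclear genes rose and 1 fell, with a median log2 fold change of 0.19, while the 7 mitochondrial genes had a median of -0.14. In complex III, 7 of 9 nuclear genes rose with a median of 0.24, and its mitochondrial subunit mt-Cytb had a log2 fold change of -0.12 that did not pass the test. In complex IV, 10 of 15 tested nuclear genes rose with a median of 0.27, and all 15 had a value above 0. Its 3 mitochondrial genes had a median of -0.06. In ATP synthase, 14 of 17 nuclear genes rose with a median of 0.26, and the pair of mitochondrial genes had a median of -0.26. Complex II, which has no mitochondrial gene, had 3 of its 4 genes higher and a median of 0.18. No test was made of the difference between these medians.

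**Figure D1:**
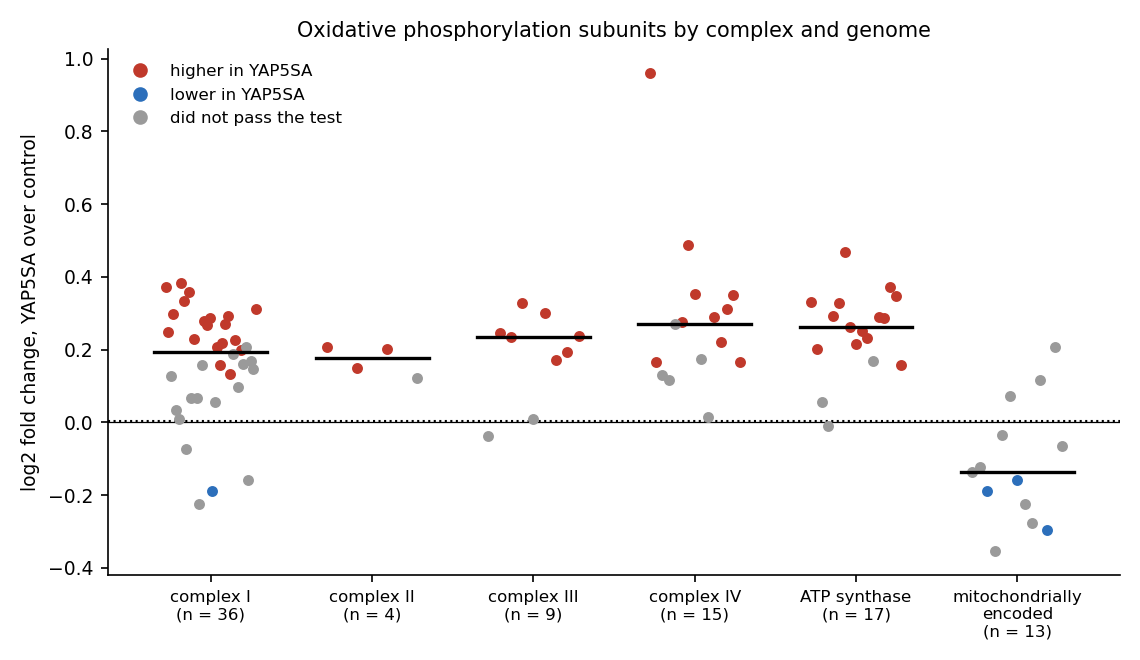
Each point is 1 subunit gene, plotted by the log2 fold change of YAP5SA over control (vertical axis) and grouped by complex for nuclear genes, with all 13 mitochondrially encoded genes at the right; black bars are group medians and the dotted line is the median of all tested genes. The nuclear medians lie between 0.18 and 0.27, and the mitochondrial median lies at -0.14.

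Complex I, the NADH dehydrogenase, had the most subunit genes and the only nuclear call in the lower direction. Ndufc1, an accessory membrane subunit, was at 26.8, 24.8, 29.7 and 25.1 CPM in control libraries 1 to 4 and at 36.1, 34.5, 35.7 and 32.7 CPM in YAP5SA libraries 1 to 4. The groups did not overlap, and the log2 fold change was 0.38 with a standard error of 0.078 (edgeR quasi-likelihood test, Benjamini-Hochberg adjusted p = 0.000511). Ndufv1, the core subunit that binds FMN and takes electrons from NADH, was at 79.3, 79.8, 82.6 and 82.0 CPM in controls and at 103.7, 101.0, 100.7 and 96.0 CPM in YAP5SA libraries. It rose 1.24-fold (adjusted p = 7.31e-05). The accessory subunits Ndufb6, Ndufa5 and Ndufv3 also rose, with log2 fold changes of 0.37, 0.36 and 0.33. Ndufs1, a core iron-sulfur subunit, rose least of those called, with a log2 fold change of 0.13 and an adjusted p of 0.0486 by the same test, and it kept that call only when control 3 was the library left out.

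Values below 0 were found in 4 nuclear genes of complex I, of which Ndufa7 was called lower. It was at 92.2, 85.5, 97.0 and 74.4 CPM in controls and at 78.3, 74.6, 78.5 and 75.7 CPM in YAP5SA libraries, so control 4 lay below all YAP5SA libraries and the groups overlapped. Its log2 fold change was -0.19 (edgeR adjusted p = 0.036), and the call was lost without control 1, without control 3 or without any of the 4 YAP5SA libraries. Ndufa3 had a log2 fold change of -0.22 (adjusted p = 0.0566), Ndufa2 of -0.16 and Ndufb8 of -0.07, none of which passed the test.

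Complex II is succinate dehydrogenase, which also works in the citric acid cycle. Sdha, its flavoprotein, was at 374.1, 361.7, 375.4 and 360.6 CPM in controls and at 395.8, 408.9, 415.1 and 412.8 CPM in YAP5SA libraries. All YAP5SA values were above all control values, at 1.11-fold (edgeR adjusted p = 0.0108). The membrane anchors Sdhc and Sdhd rose 1.15-fold each, with adjusted p-values of 0.00495 and 0.0041. The iron-sulfur subunit Sdhb had a log2 fold change of 0.12 and did not pass the test (adjusted p = 0.111).

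In complex III, the cytochrome bc1 complex, the small subunit gene Uqcrq was at 69.6, 67.1, 72.0 and 64.96 CPM in controls and at 91.5, 90.1, 81.7 and 80.6 CPM in YAP5SA libraries. It rose by the most in this complex, at 1.25-fold (edgeR adjusted p = 0.000224). Uqcr10 followed at 1.23-fold. Of the subunits that carry the redox centres, Cyc1 (cytochrome c1) rose by 0.24 on the log2 scale and Uqcrfs1 (the Rieske iron-sulfur protein) by 0.17. The core protein gene Uqcrc1 had means of 184 ± 4.38 CPM (controls) and 185 ± 6.67 CPM (YAP5SA) (SD, n = 4), a log2 fold change of 0.01 with a standard error of 0.048. Its partner Uqcrc2 rose by 0.19, a call lost without YAP5SA 2. Uqcrh, the acidic hinge protein, and Uqcrb rose by 0.24 each. The call of Uqcrb (adjusted p = 0.0472) held only when control 3 or control 4 was the library left out, and its log2 fold change was 0.135 without control 4. Uqcr11 had a log2 fold change of -0.04 that did not pass the test.

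Complex IV, cytochrome c oxidase, has subunits with tissue-specific isoforms. Of the isoforms found in most tissues, Cox7a2, Cox4i1, Cox6a1, Cox8a and Cox6b1 rose, and Cox7b, with a log2 fold change of 0.12, did not pass the test. Cox7a2 was at 84.2, 83.8, 91.2 and 67.0 CPM in controls and at 122.2, 113.0, 102.9 and 120.8 CPM in YAP5SA libraries, with no overlap and a 1.40-fold rise (edgeR adjusted p = 0.000109). Cox4i1 rose 1.22-fold, Cox6a1 1.24-fold, Cox8a 1.21-fold and Cox6b1 1.17-fold. The call of Cox6b1 was lost without control 1, without YAP5SA 1 or without YAP5SA 2, and its log2 fold change was 0.14 without control 4 in place of 0.22. Cox7a2l, a relative of Cox7a2 that joins complexes III and IV into supercomplexes, rose 1.12-fold, a call lost without control 2, without YAP5SA 2 or without YAP5SA 3. Cox5a, a subunit without such an isoform pair, rose 1.28-fold (adjusted p = 2.88e-05), and Ndufa4, which carries a complex I name but is a subunit of complex IV, rose 1.27-fold.

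The isoforms known from muscle, lung or testis were at low levels or had too few counts to test. Cox7a1, the heart and skeletal muscle isoform, was at 1.2, 0.81, 1.17 and 1.12 CPM in controls and at 1.94, 2.48, 1.93 and 2.002 CPM in YAP5SA libraries. Its 1.95-fold rise was the highest of all members by fold (adjusted p = 0.00528), from a low level. Markers of skeletal and cardiac muscle together were at no more than 2.382 CPM in any library, a level as low as that of Cox7a1 itself. Single markers in that sum moved in both directions: Mb had 7 counts in controls and 49 in YAP5SA libraries, and Myh7 had 33 and 3. The part of muscle cells in the rise of Cox7a1 was not tested. Cox6b2, known from testis, had means of 4.87 ± 0.517 CPM (controls) and 4.90 ± 0.604 CPM (YAP5SA) and did not pass the test. The filter on low counts removed 5 genes. Cox4i2, a lung isoform linked to oxygen sensing, had 1 count over the 4 control libraries and 4 over the YAP5SA libraries, Cox6a2 had 0 and 6, and Cox7b2, Cox8b and Cox8c had 0 in all libraries. A group total of 0 allows up to 3 counts, which is 0.0446 CPM in controls and 0.0454 CPM in YAP5SA libraries, and this covers counting error only.

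ATP synthase had the highest share of nuclear genes that rose, at 82.4%. Atp5b, the catalytic beta subunit, was at 1217, 1245, 1212 and 1150 CPM in controls and at 1523, 1589, 1542 and 1481 CPM in YAP5SA libraries. All 4 YAP5SA libraries were above all controls, with a log2 fold change of 0.35 and a standard error of 0.048 (edgeR adjusted p = 9.56e-06). Its partner in the catalytic head, Atp5a1, rose 1.12-fold (adjusted p = 0.00884), a call lost without YAP5SA 2. Atp5l and Atp5k, subunits g and e of the membrane part, rose 1.26-fold and 1.25-fold. The genes Atp5g1, Atp5g2 and Atp5g3 encode the same mature c subunit of the rotor ring, and all 3 rose, by 0.47, 0.37 and 0.29 on the log2 scale. Atp5g1 was at 36.1, 34.7, 34.3 and 34.3 CPM in controls and at 49.3, 51.5, 45.8 and 46.1 CPM in YAP5SA libraries, with no overlap. Atp5j2, Atp5md and Atp5e did not pass the test, with log2 fold changes of 0.17, 0.06 and -0.01.

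Of the 3 subunit genes on the X chromosome, Ndufb11 rose 1.23-fold and Ndufa1 1.16-fold, while Cox7b had a log2 fold change of 0.12 and an adjusted p of 0.263 (edgeR). The groups overlapped in Ndufa1, whose adjusted p was 0.0473, and its call held only when control 3 or YAP5SA 3 was the library left out.

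Seen library by library, control 4 stood apart from the other controls in the nuclear genes. It had the lowest control value in 66 of the 81 genes, and its median deviation from the control mean was -0.18 on the log2 scale, beside 0.04, 0.02 and 0.10 in controls 1 to 3. The 4 YAP5SA libraries had medians of 0.23, 0.26, 0.21 and 0.21. Without control 4, 49 of the 81 nuclear genes rose and 4 fell (Ndufa2, Ndufa3, Ndufa7 and Ndufb8), and the median log2 fold change was 0.16 in place of 0.21. In the mitochondrial genes the controls spread from -0.16 in control 4 to 0.17 in control 2, and the YAP5SA medians of -0.11, -0.14, -0.18 and -0.05 lay within that spread in all but YAP5SA 3.

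**Figure D2:**
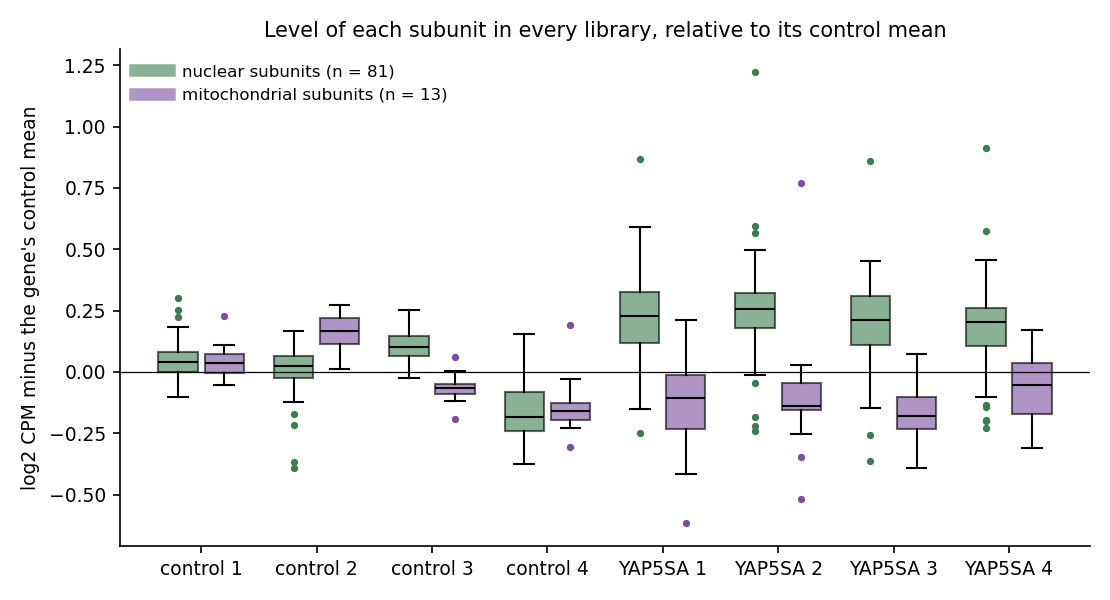
Boxes show, for each library, the log2 CPM of every subunit gene minus that gene's control mean, for 81 nuclear genes (green) and 13 mitochondrial genes (purple); boxes span the quartiles, the line is the median, whiskers reach at most 1.5 times the box height and dots lie beyond them. Nuclear medians lie between 0.21 and 0.26 in YAP5SA libraries and between -0.18 and 0.10 in controls.

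Summed over genes, the nuclear subunits took 0.995%, 0.989%, 1.03% and 0.872% of the counts in controls 1 to 4 and 1.15%, 1.19%, 1.13% and 1.14% in YAP5SA libraries 1 to 4. Every YAP5SA library was above every control. The mitochondrial subunits took 5.00%, 5.03%, 4.77% and 4.23% in controls and 4.54%, 4.67%, 4.39% and 4.94% in YAP5SA libraries, and these ranges overlapped. The number of mitochondrial subunit counts per 100 nuclear subunit counts, which no scaling between libraries can move, was 502.8, 508.8, 465.1 and 484.6 in controls and 396.1, 393.0, 386.7 and 432.9 in YAP5SA libraries. The groups did not overlap, with means of 490.3 ± 19.7 and 402.2 ± 20.9 (SD, n = 4). mt-Co1 alone held between 2.24% and 2.77% of the counts of a library, more than all other mitochondrial subunits together in each group's mean.

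**Figure D3:**
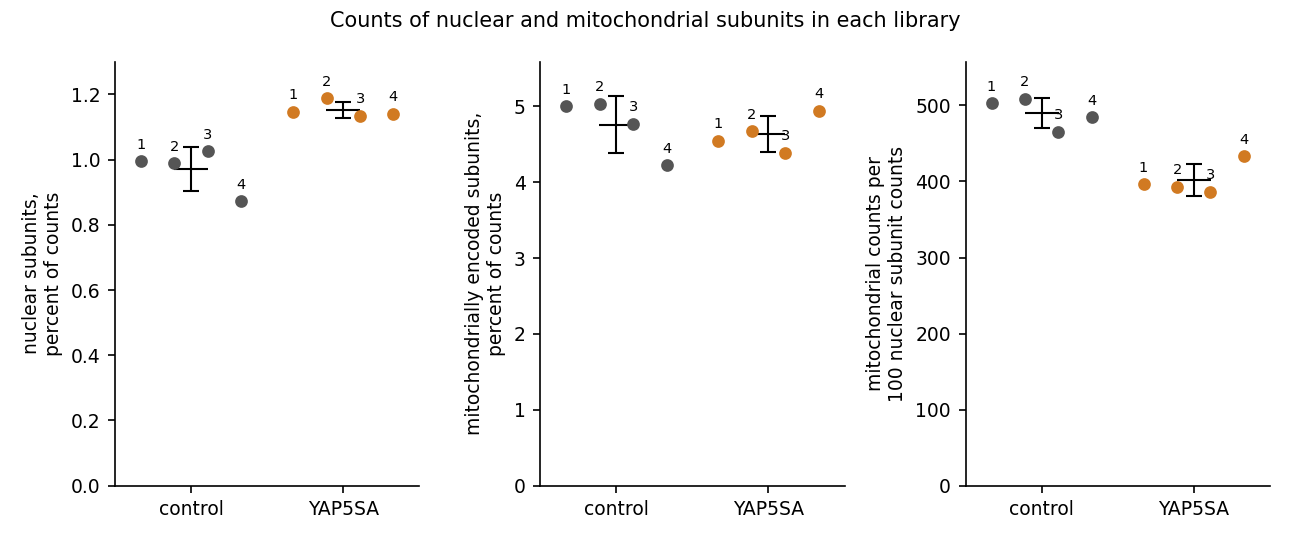
The 3 panels show, for each library (numbered points), the percent of counts from nuclear subunits, the percent from mitochondrially encoded subunits, and mitochondrial counts per 100 nuclear subunit counts; bars are the mean and SD of 4 libraries, and each axis starts at 0. Groups do not overlap in the first and last panels, and overlap in the middle one.

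Among the mitochondrially encoded genes, those called lower were mt-Atp6, mt-Co3 and mt-Nd4. mt-Atp6, the proton channel subunit of ATP synthase, was at 137.2, 166.2, 131.2 and 120.3 CPM in controls and at 104.0, 125.0, 111.9 and 111.2 CPM in YAP5SA libraries. Only YAP5SA 2 lay above a control (control 4), and the log2 fold change was -0.30 with a standard error of 0.086 (edgeR adjusted p = 0.00979). mt-Nd4, a proton-pumping subunit of complex I, was at 2254, 2394, 2036 and 2167 CPM in controls and at 1946, 1994, 1949 and 2045 CPM in YAP5SA libraries, a log2 fold change of -0.16 (adjusted p = 0.0231). The call of mt-Nd4 was lost without control 2, without YAP5SA 1 or without YAP5SA 3. mt-Co3, a core subunit of complex IV, had a log2 fold change of -0.19 (adjusted p = 0.0385), and its call was lost without control 2 (log2 fold change of -0.11), without YAP5SA 1 or without YAP5SA 4. Groups overlapped in all 13 genes.

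The other mitochondrial genes did not pass the test, and their values spread to both sides of 0. The complex I genes mt-Nd1 and mt-Nd2 had log2 fold changes of -0.04 and -0.14, and the low-count genes mt-Nd3 and mt-Nd4l had -0.28 and -0.36 with standard errors of 0.15 and 0.17. mt-Nd5 and mt-Nd6 stood at 0.07 and 0.12. mt-Co1, the catalytic core of complex IV, stood at -0.06 and mt-Atp8 at -0.23. mt-Co2, which takes electrons from cytochrome c, was at 298.7, 341.6, 306.5 and 279.1 CPM in controls and at 283.7, 520.7, 299.5 and 312.1 CPM in YAP5SA libraries. Its log2 fold change of 0.21 (adjusted p = 0.458) rested on YAP5SA 2 and was -0.05 without that library. Without control 4, 6 mitochondrial genes were called lower (mt-Atp6, mt-Co1, mt-Co3, mt-Cytb, mt-Nd2 and mt-Nd4), and without control 2 only mt-Atp6.

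**Figure D4:**
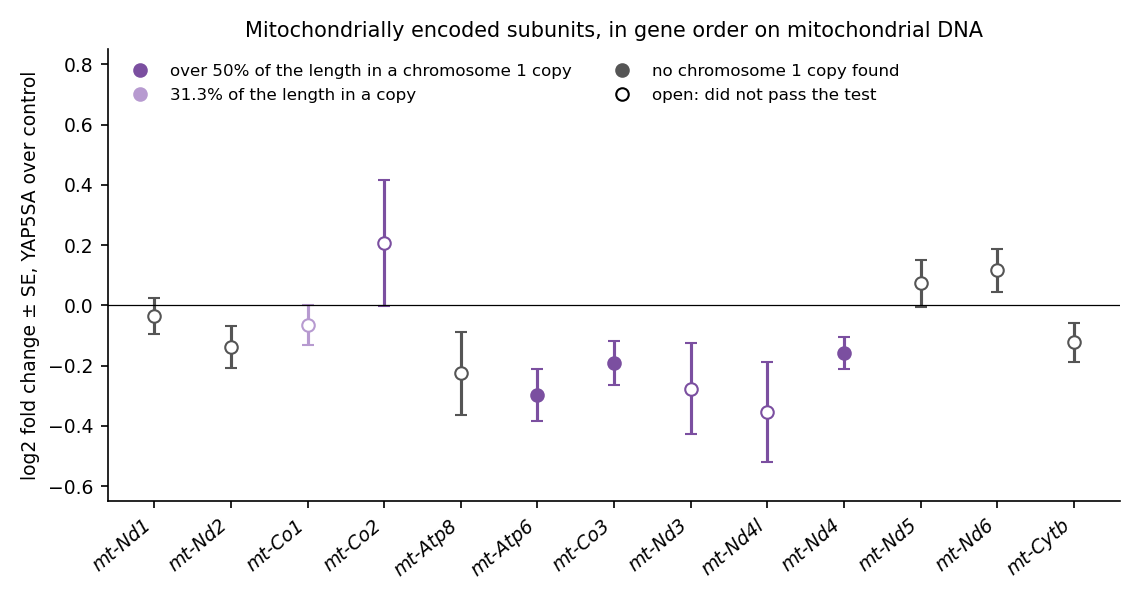
The log2 fold change of YAP5SA over control (vertical axis, bars are ± 1 standard error of the edgeR fit) is plotted for the 13 mitochondrially encoded subunits in their order on mitochondrial DNA; filled points passed the test, and purple marks genes with a near-identical copy on chromosome 1. The 3 filled points, mt-Atp6, mt-Co3 and mt-Nd4, are all purple.

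Counts of these genes depend on how reads were assigned, because the nuclear genome holds a copy of this stretch of mitochondrial DNA. In the GENCODE M21 annotation (GRCm38), 7 genes on the minus strand of chr1:24611535-24616197 align to 7 mitochondrial subunits at 95% identity or more over at least 200 nucleotides. Only annotated transcripts were searched, so a copy without an annotated gene, for instance of mt-Atp8, would not be found. Gm10925 matches 678 of the 681 nucleotides of mt-Atp6 with 0 mismatches, and it had 25077 counts over the 8 libraries against 16922 for mt-Atp6. The stretches in mt-Co2, mt-Co3, mt-Nd4l and mt-Nd4 were also free of mismatches, and those in mt-Nd3 and mt-Co1 held 1 mismatch each. The counts of the copy came to 62.2% of those of mt-Co3, 40.4% of those of mt-Co2, 74.4% of those of mt-Nd3, 94.8% of those of mt-Nd4l, 1.3% of those of mt-Nd4 and 0.193% of those of mt-Co1. By the same limits, 9 mitochondrial subunits had a copy on any chromosome. On chromosome 2, Gm13340 aligns to all 1545 nucleotides of mt-Co1 at 97.6% identity, Gm13341 aligns to mt-Co2, and Gm13339 to 510 nucleotides of mt-Nd2. On chromosome 13, Gm4076 aligns to 954 nucleotides of mt-Nd5. Gm13339 had 13 counts and Gm4076 had 42. How reads that fit more than 1 place were handled is not given in the sources used here. Subunits with at least 99% of their length in a chromosome 1 copy had low control means, from 5.08 CPM (mt-Nd4l) to 306 CPM (mt-Co2), with mt-Atp6 at 139 CPM and mt-Co3 at 151 CPM. Those with no chromosome 1 copy found had 12.0 CPM (mt-Atp8), 532 CPM (mt-Nd6) and up to 7190 CPM (mt-Cytb). The part of read assignment in these levels, and in the calls of mt-Atp6 and mt-Co3, was not tested. The lines here show the bases that tell the places apart, in capitals, within the transcript sequences of that annotation, as the substitutions T3C and A1066T (subunit first, position counted from the first base of its transcript, then the copy). The last line is the first 60 bases of mt-Atp6, where no base differs and none is in capitals.
mt-Nd3: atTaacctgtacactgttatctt
Gm28438: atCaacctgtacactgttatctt
mt-Co1: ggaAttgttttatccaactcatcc
Gm29216: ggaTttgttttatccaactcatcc
mt-Atp6 and Gm10925: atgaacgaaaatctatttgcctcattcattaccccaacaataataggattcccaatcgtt

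When the counts of each chromosome 1 copy were added to its subunit, the log2 fold change of mt-Atp6 was -0.43 (edgeR adjusted p = 0.000374) and that of mt-Nd4 was -0.16 (adjusted p = 0.0222). That of mt-Co3 was -0.15 and no longer passed the test (adjusted p = 0.0712). With the copy added, mt-Atp6 was at 333.7, 394.9, 310.2 and 412.8 CPM in controls and at 256.8, 285.0, 253.7 and 280.8 CPM in YAP5SA libraries, and these groups did not overlap. Gm10925 alone was at 197.0, 227.2, 177.9 and 292.8 CPM in controls and at 152.8, 160.3, 142.3 and 170.1 CPM in YAP5SA libraries. It was itself called lower, with a log2 fold change of -0.51 (edgeR adjusted p = 0.0171). Control 4 was the lowest control for mt-Atp6 and the highest for Gm10925, so the sum is no firmer measure of mt-Atp6 alone. Adding the copies was an alternative chosen after the data were seen. By the same limits of identity and length, 24 nuclear subunits share a stretch of transcript with another gene, either a pseudogene copy or a different gene that overlaps. In 5 of them the most counted such gene held over 10% of the counts of the subunit. For Atp5g1, Atp5l, Atp5h and Cox7a2l it is a processed pseudogene, and for Ndufb5 it is Mrpl47, a mitochondrial ribosomal protein gene that shares 216 nucleotides. How far shared reads move the values of the 24 subunits is not known. The counts of the other gene do not bound it, since the handling of such reads is not given.

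Mitochondrial DNA also encodes ribosomal RNAs and transfer RNAs, which are no subunits. mt-Rnr1, the small ribosomal RNA, was at 581.0, 529.0, 583.6 and 581.2 CPM in controls and at 731.9, 720.1, 856.0 and 734.5 CPM in YAP5SA libraries. It rose 1.34-fold with no overlap (edgeR adjusted p = 1.23e-05). In controls the mean was 569 CPM for mt-Rnr1 and 928 CPM for mt-Rnr2, beside 26097 CPM for mt-Co1. The part of library preparation in the levels of the ribosomal RNAs was not tested. mt-Rnr2, the large ribosomal RNA, had a log2 fold change of 0.11 and did not pass the test (adjusted p = 0.143), except without control 4, where it was called higher with a log2 fold change of 0.14. The transfer RNA gene mt-Tp went the other way, with means of 47.5 CPM in controls and 39.8 CPM in YAP5SA libraries. It was called lower with no overlap, at a log2 fold change of -0.26 (edgeR adjusted p = 0.00966).

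Most nuclear subunits have short transcripts, so length was examined. Of the 78 tested nuclear subunits with a transcript length in the annotation, 60 had a median transcript under 1000 nucleotides, and 40 of these rose with a median log2 fold change of 0.23. Of the 18 longer ones, 11 rose, with a median of 0.16. The length is a median over annotated transcripts, and the longest protein-coding transcript can be far longer. The median and longest are 651 and 2661 nucleotides for Ndufs1, 533 and 1653 for Uqcrc1, and 815 and 3171 for Sdhc. The length of the RNA that was sequenced is therefore not known for such genes, here or in the trend below. Tested genes under 1000 nucleotides that are no subunits had 21.7% called higher and a median of 0.05. After removing, in each library, the trend of deviations from the mean level with transcript length, an alternative added after the data were seen, 46 of these 78 nuclear subunits rose and 3 fell, with a median of 0.17, and 6 mitochondrial subunits fell. Atp5pb, Ndufb1 and Atp5md have no length there and were not in that fit, and the former pair had been called higher.

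Promoters of the nuclear subunits were examined because so many of these genes rose. RefSeq windows of 300 bases on GRCm38.p6, from 250 bases before to 50 bases after the start of transcription, were matched by symbol for 69 of the 86 nuclear genes, with 74 windows among 32851. The letters CGCATGCG, a core of the site of nuclear respiratory factor 1, stood in 12.2% of the subunit windows and 1.87% of all windows, counting both strands. The letters CCGGAAG, a core of the ETS factor site that GABP binds, stood in 23% and 8.86%, and AAGATGGC, a core of the YY1 site, in 13.5% and 2.75%. GGAATG, the core of the site of TEAD, the DNA-binding partner of YAP, stood in 10.8% and 14.7%, and the GC box GGGCGG in 39.2% and 35.7%. None of these motifs contains another. At least 1 of the first 3 stood in 40.5% of subunit windows, in 34% of the windows of subunits that rose and in 56% of those of tested subunits that did not. A match of letters is a description of the window and no evidence of binding.

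The windows here are, for each complex, that of the gene with the highest fold change among those that rose and hold one of the first 3 motifs, followed by Ndufa7, the subunit called lower, whose window holds none of the 5. They show where these letters lie relative to the start of transcription, which follows base 250. Capitals mark the nuclear respiratory factor 1, ETS and YY1 cores on either strand, the ETS core of the other strand reading CTTCCGG. All are written 5′ to 3′ on the strand of the gene.
Ndufc1 (chr3:51408906-51409205, minus strand): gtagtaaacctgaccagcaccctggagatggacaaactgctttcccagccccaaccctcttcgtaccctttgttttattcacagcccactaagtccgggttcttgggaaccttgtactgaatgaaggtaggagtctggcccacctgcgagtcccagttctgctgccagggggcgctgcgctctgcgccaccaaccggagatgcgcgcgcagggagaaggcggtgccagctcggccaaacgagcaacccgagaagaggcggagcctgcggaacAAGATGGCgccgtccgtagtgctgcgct
Sdhd (chr9:50603800-50604099, minus strand): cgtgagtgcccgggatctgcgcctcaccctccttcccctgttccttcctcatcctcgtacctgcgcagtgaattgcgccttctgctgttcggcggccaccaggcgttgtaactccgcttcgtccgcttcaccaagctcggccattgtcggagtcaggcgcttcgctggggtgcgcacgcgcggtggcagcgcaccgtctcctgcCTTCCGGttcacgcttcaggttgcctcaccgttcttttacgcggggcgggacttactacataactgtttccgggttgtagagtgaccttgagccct
Uqcrh (chr4:116075021-116075320, minus strand): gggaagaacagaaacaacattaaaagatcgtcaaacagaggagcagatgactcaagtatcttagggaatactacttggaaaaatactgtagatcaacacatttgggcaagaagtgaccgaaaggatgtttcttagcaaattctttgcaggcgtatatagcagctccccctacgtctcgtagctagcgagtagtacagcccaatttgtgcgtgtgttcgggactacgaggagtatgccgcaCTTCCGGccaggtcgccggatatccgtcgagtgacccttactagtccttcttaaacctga
Cox6a1 (chr5:115348909-115349208, minus strand): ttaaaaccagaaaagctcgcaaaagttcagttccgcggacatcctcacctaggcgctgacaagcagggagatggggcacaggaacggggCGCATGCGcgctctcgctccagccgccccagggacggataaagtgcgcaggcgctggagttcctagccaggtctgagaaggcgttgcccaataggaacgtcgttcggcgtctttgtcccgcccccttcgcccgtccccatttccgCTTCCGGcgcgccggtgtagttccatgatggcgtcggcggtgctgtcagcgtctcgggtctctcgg
Atp5g2 (chr15:102670998-102671297, minus strand): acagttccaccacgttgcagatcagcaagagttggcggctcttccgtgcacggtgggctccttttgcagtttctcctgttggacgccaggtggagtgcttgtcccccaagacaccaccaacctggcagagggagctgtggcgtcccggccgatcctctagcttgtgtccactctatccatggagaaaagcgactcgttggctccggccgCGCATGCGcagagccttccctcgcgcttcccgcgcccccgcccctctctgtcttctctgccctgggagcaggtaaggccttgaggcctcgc
Ndufa7 (chr17:33824322-33824621, plus strand): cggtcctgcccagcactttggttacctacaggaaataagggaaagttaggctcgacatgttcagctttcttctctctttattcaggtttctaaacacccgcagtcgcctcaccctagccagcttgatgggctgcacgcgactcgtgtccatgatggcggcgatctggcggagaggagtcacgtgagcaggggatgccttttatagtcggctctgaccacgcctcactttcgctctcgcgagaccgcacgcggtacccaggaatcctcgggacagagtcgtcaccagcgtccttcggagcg

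The ETS core starts at base 205 of the Sdhd window, at base 241 of the Uqcrh window and at base 235 of the Cox6a1 window, all within the last 50 bases before the start site. The nuclear respiratory factor 1 core starts at base 210 in Atp5g2 and at base 90 in Cox6a1. The YY1 core of Ndufc1 starts at base 273, after the start site.

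Other genes of the mitochondrion were described by lists beside the subunits, against the 23.6% of all tested genes called higher and the 25.5% called lower. Enzymes of the citric acid cycle and pyruvate dehydrogenase, which supply the electrons, had 10 of 18 members higher (55.6%) and 1 lower (5.56%), with a median log2 fold change of 0.18. Idh2, the mitochondrial isocitrate dehydrogenase that makes NADPH, was at 109.0, 105.9, 115.9 and 95.7 CPM in controls and at 155.6, 163.2, 166.0 and 156.7 CPM in YAP5SA libraries, a 1.503-fold rise (edgeR adjusted p = 1.65e-07). Idh3a and Pdha1 rose 1.38-fold and 1.21-fold. Suclg2, the subunit that makes succinyl-CoA ligase specific for GTP, fell by 0.49 on the log2 scale.

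The genes that build or express the complexes were called in both directions, at shares below those of all tested genes (23.6% higher, 25.5% lower). Of 48 tested assembly factors, 7 rose (14.6%) and 9 fell (18.8%), with a median log2 fold change of -0.07. Cox14 and Fmc1, factors for complex IV and ATP synthase, rose 1.39-fold and 1.70-fold. The copper chaperone Cox17 and its relative Cox19 had log2 fold changes of -0.35 and -0.36 and fell. Of 77 mitochondrial ribosomal protein genes, 9 rose (11.7%) and 8 fell (10.4%), with a median of 0.0041. Mrpl14 rose 1.51-fold, while Mrpl16, Mrpl50 and Mrpl3 had log2 fold changes of -1.27, -0.43 and -0.40 and fell. Without YAP5SA 2 the ribosomal list had 5 genes higher in place of 9, and without control 2 it had 5 lower in place of 8.

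Of 23 genes that copy, transcribe or process mitochondrial DNA and RNA, 2 rose (8.7%) and 3 fell (13%), also below the 23.6% and 25.5% of all tested genes, with a median of -0.01, and the number that rose was 1 without control 2 and 4 without control 3. Tfam, which packages mitochondrial DNA, and Polrmt, its RNA polymerase, did not pass the test, with log2 fold changes of -0.03 and 0.08. Grsf1, an RNA-binding protein of mitochondrial RNA granules, rose 1.27-fold and Fastk 1.17-fold, the latter not without control 2. Tfb2m, a transcription initiation factor, and Elac2, which cuts tRNA ends, fell, with log2 fold changes of -0.36 and -0.24. Of the 7 tested carriers and subunits outside the symbol patterns, 2 rose (28.6%) and 1 fell (14.3%): Etfb and Etfa, the electron transfer flavoprotein, rose 1.45-fold and 1.14-fold, and Gpd2, the glycerol-3-phosphate dehydrogenase of the inner membrane, had a log2 fold change of -0.82 and fell.

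**Figure D5:**
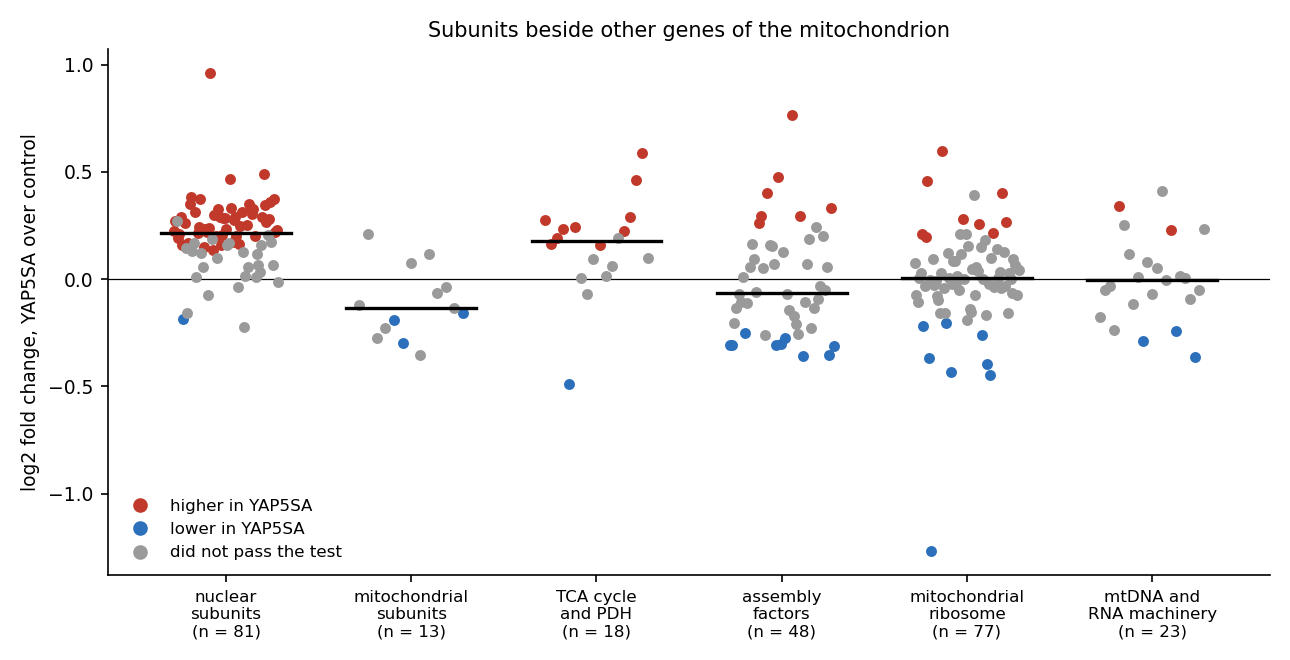
Each point is 1 gene, plotted by the log2 fold change of YAP5SA over control (vertical axis) for the nuclear and mitochondrial subunits and 4 lists of other mitochondrial genes; black bars are medians and colours give the test result. Medians are 0.21 for nuclear subunits and 0.18 for citric acid cycle and pyruvate dehydrogenase (PDH) genes, and lie between -0.14 and 0.0041 in the other groups.

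Of 14 tested regulators of mitochondrial genes, 4 rose (28.6%) and 3 fell (21.4%), shares near the 23.6% and 25.5% of all tested genes, and 7 rose without control 4. Ppargc1a, the coactivator PGC-1alpha, was at 24.9, 25.1, 22.9 and 26.8 CPM in controls and at 43.6, 40.4, 37.5 and 41.7 CPM in YAP5SA libraries, a 1.64-fold rise with no overlap (edgeR adjusted p = 3.75e-07). Its nuclear receptor partner Esrra rose 1.27-fold, and Gabpa, the DNA-binding part of GABP, 1.15-fold. Epas1, the hypoxia-inducible factor 2 alpha, rose 2.67-fold. Esrrg, a receptor of the same family as Esrra that is also among the parietal cell markers, was at 32.5, 37.5, 31.1 and 36.2 CPM in controls and had 7 counts over the 4 YAP5SA libraries, which did not exceed 0.18 CPM. Myc and Gabpb1 fell, with log2 fold changes of -0.20 and -0.25. Nrf1 and Ppargc1b did not pass the test, with log2 fold changes of 0.15 and 0.32. Of 5 tested hypoxia-linked mitochondrial genes, 2 rose (40%, beside 23.6% of all tested genes), Higd1a 1.31-fold and Lonp1 1.22-fold. Pdk1, Bnip3 and Higd2a did not pass the test, with log2 fold changes of 0.13, 0.10 and -0.12.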

How the data were processed

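The 8 libraries (4 control, 4 YAP5SA) were sequenced as paired-end reads of total RNA, per the labels' protocols. The values are read counts per gene, deposited by the authors as whole numbers that were not normalized. Tools named in the submitters' processing notes are cutadapt, HISAT2 2.0.1 and HTSeq 0.6.1, with genome build mm9. The annotation, the strand setting and the handling of reads that map to several places are named in none of the sources used here, so overlapping and antisense genes may share reads. The 2639 rows without a name (0.190% to 0.221% of counts) were left out, and 77 symbols on more than 1 row were summed, among them Atp5o.

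Genes were kept by filterByExpr of edgeR (minimum count 10, minimum total 15), scaled by TMM and tested with the quasi-likelihood test of edgeR 4.0.16 in R 4.3.3, with genotype as the only term and Benjamini-Hochberg adjustment over 14058 genes. Standard errors are those of the log2 fold change, taken from its F value. Biological variation between libraries, as a common coefficient, came to 7.97%. Complexes were assigned by symbol. Lengths, chromosomes and genes that share sequence came from GENCODE M21 (GRCm38), matched by symbol for 13666 of the 14058 genes, and promoter sequences from RefSeq (GRCm38.p6). No coordinates were converted between builds. The test was checked on simulated counts.

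Members and lists were chosen with earlier results of these data known. Genes are named by rule: all mitochondrial subunits, in each complex the called members with the highest and lowest log2 fold change and up to 4 more of the largest size, isoforms, complex II, X-linked and untested members and those against the main direction of their complex, and up to 4 called members of each list with the smallest adjusted p, with set regulators. Ndufs1, Ndufb1, Ndufb5, Uqcrc1, Uqcrc2, Cox6c2, Atp5h, Atp5j2, Atp5md, Atp5pb, Gabpb1, Pdk1, Bnip3, Higd2a, Mb, Myh7, mt-Tp, the mitochondrial ribosomal RNAs and genes named for a library that stands apart fall outside the rule and were chosen after their values were seen. Alternatives were DESeq2 1.42.0, other scalings, no filter, a stricter threshold, the replicate block, leaving out each library, removing a length trend and adding chromosome 1 copies. The values of 1 member are not reported here singly, though it is included in the counts and medians over genes; it was left out of the search for libraries that stand apart.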

Additional observations from a re-analysis of the deposited data

Results flagged for a closer look

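In groups of 4 libraries, a value was marked where the gap between the highest or lowest library and the next as a share of the range was over Dixon's 95% critical value, which chance alone does in about 1 of 20 groups. It was met in 18 of 278 groups (6.47%). In 7 of the 18 control 4 was the low library: Atp5c1 at 271 CPM (others 324.2 to 327.2), Atp5o at 100 CPM (118.5 to 120.5), Ndufb6 at 35 CPM (44.01 to 45.1), Ndufs5 at 17.3 CPM (19.95 to 20.36), Ndufb10 at 64.2 CPM (75.34 to 76.72), Uqcrc2 at 175 CPM (208.2 to 211.6) and Higd1a at 44.9 CPM (52.92 to 54.57). Control 4 was the high library for Myc, at 68.9 CPM (60.7 to 61.76). Control 3 was high for Ndufb1, at 32.1 CPM (25.7 to 26.7).

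YAP5SA 2 was high for mt-Co2, at 521 CPM beside 283.7 to 312.1 CPM in the other YAP5SA libraries, and for Cox7a1 at 2.48 CPM and Etfb at 34.5 CPM. YAP5SA 1 was high for Atp5md at 92.9 CPM and low for Uqcrfs1 at 162 CPM. Of the ribosomal RNAs, mt-Rnr1 was low in control 2 at 529 CPM and high in YAP5SA 3 at 856 CPM, and mt-Rnr2 was high in YAP5SA 4 at 1088 CPM. The chromosome 1 copy Gm29216 was also high in YAP5SA 4, at 65.7 CPM.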

How the results depend on the processing

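The nuclear subunits called higher numbered 53 in the main analysis and between 37 and 57 under the settings that kept all libraries, and their median log2 fold change stayed above 0. Called lower among them were 0 with library size alone, 0 at an adjusted p under 0.01, 2 with no filter on low counts and 3 with the length trend removed, in place of 1 (that fit leaves out 3 subunits without a length). Mitochondrial subunits called lower numbered 1 with library size alone, 1 at an adjusted p under 0.01 and 6 with the length trend removed, in place of 3. The calls of mt-Co3 and mt-Nd4 were both lost with library size alone. That of mt-Co3 was also lost with upper-quartile scaling and with TMM computed from nuclear genes. The cause of these moves was not tested beyond the stricter threshold itself. mt-Atp6 was lower in every setting run. Leaving out 1 library at a time gave 41 to 56 nuclear subunits higher, 0 to 4 lower and 1 to 6 mitochondrial subunits lower, with nuclear medians of 0.16 to 0.25 and mitochondrial medians of -0.16 to -0.07. Of the 53 genes, 39 were called higher in all 8 such fits. Libraries share replicate numbers across groups, and same-numbered libraries had correlations of -0.10, -0.11, 0.09 and 0.03 in their deviations. No effect shared by number was seen, but such correlations cannot show whether equal numbers mark a shared source, which the labels do not say. With the replicate block 51 nuclear subunits were higher and 1 lower, 3 mitochondrial subunits were lower, and 50 of the 53 were among those higher. For the other lists, an adjusted p under 0.01 left 4 assembly factors higher and 3 lower, 5 mitochondrial ribosomal genes higher and 4 lower, 1 gene of the DNA and RNA machinery higher, 1 regulator lower and 1 carrier higher. The ribosomal genes called lower numbered 5 with library size alone and 5 with no filter on low counts. The length trend removed gave 1 hypoxia-linked gene lower in place of 0. Leaving out 1 library gave 5 to 9 ribosomal genes higher and 5 to 12 lower, 1 to 4 genes of the machinery higher, 4 to 7 regulators higher and 0 to 1 hypoxia-linked genes lower. With 4 libraries a group and changes this small, genes that missed the threshold are not shown to be unchanged, and depth limits the members with few counts, such as Cox7a1, mt-Nd4l and mt-Nd3.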
